A study of Rattus norvegicus with 16 samples.

Results

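Interferon-stimulated genes (ISGs) were followed in microglia sorted from rat brains after irradiation and a later immune challenge. The set was defined by 49 gene symbols, of which 47 were found among the 21842 symbols of the count matrix, each on 1 of the 30560 gene IDs. Ddx60 and Oas1b were not analysed here. Of the 47 genes, 46 passed the filter on low counts and were among the 13608 genes tested. The ISG15 gene Isg15 had 0 counts in all 16 libraries, where counting error alone allows 3 counts or 0.0478 to 0.21 CPM per library (CPM is the usual unit of counts scaled to a common library size). Whether the counting missed reads of Isg15 was not tested, so its expression is not described. Of the 46, 41 exceeded the CPM of 10 counts in the median library (0.503) in all 16 libraries, and the other 5 (Irf9, Oas2, Oas3, Ifit1 and Helz2) did so in some libraries of each group.

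The cells came from whole brains of male rats of the Wistar strain (Hsd/Cpb:WU). They were dissociated mechanically in the cold and sorted by DAPI exclusion, high CD11b and intermediate CD45 signal, a gate in which microglia, the brain's resident macrophages, predominate. Sham PBS rats were sham-irradiated and injected intraperitoneally with phosphate-buffered saline 6 weeks later. Sham LPS rats had the same sham procedure and received lipopolysaccharide (LPS), a bacterial cell wall component sensed by TLR4. Irradiated PBS and irradiated LPS rats had received X-rays at 14 Gy before the same injections, also 6 weeks later. Each group held 4 libraries. The labels give neither the animals' age, the LPS dose nor the time from injection to sorting, and do not name the animals, so a p-value here reflects the spread among these libraries, which may be technical.

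Interferons are secreted signals that switch on an antiviral state. Type I interferons bind the receptor pair IFNAR1 and IFNAR2, whose kinases JAK1 and TYK2 phosphorylate signal transducers such as STAT2. A complex that holds STAT2 and IRF9 binds interferon-stimulated response elements (ISREs) in promoters, while signalling by interferon gamma acts through gamma-activated sites (GAS). The induced proteins sense viral nucleic acid, degrade or sequester viral RNA, tag proteins with ISG15 and feed back on the pathway. Microglia express such genes at low levels in a healthy brain and at higher levels in infection, injury, ageing and neurodegeneration.

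Promoters from RefSeq (build GRCr8, 250 bases before to 50 after the start site) could be matched by symbol for 36 of the 47 genes. The ISRE core, which is GAAA, any 2 bases and GAAA again, was searched on both strands. It was present in 22 of these 36 promoters (61.1%) and in 1131 of all 33469 promoters of the table (3.38%). The GAS core TTCNNNGAA, searched on both strands, was present in 6 of the 36 (16.7%) and in 2577 of all promoters (7.7%). The 28 ISRE matches, some overlapping each other, had their first base between positions -169 and 27 relative to the start site, 22 of them within 100 bases before it. The commonest form was GAAActGAAA, found 7 times. Below are 4 of the matched promoters, chosen to show genes that differed in their response while holding the same core: Irf7, Oas1a and Ifit3 were higher in all 4 pairwise comparisons, Lgals3bp only in the 2 irradiation comparisons. Capitals mark the ISRE core matches on either strand, and a match on the opposite strand reads TTTC, 2 bases and TTTC.
Irf7, chr1:205799974-205800273, minus strand: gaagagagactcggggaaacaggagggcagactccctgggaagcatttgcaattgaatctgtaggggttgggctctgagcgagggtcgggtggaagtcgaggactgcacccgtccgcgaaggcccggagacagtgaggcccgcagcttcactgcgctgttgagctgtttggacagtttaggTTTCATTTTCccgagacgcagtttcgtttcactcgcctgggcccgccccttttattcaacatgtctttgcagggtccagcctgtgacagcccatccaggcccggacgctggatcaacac
Oas1a, chr12:41330216-41330515, plus strand: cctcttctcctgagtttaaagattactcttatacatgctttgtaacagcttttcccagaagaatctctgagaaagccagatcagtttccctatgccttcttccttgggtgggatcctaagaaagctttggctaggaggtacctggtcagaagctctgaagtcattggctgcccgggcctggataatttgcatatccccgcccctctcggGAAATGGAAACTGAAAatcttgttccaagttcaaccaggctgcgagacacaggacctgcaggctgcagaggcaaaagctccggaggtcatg
Ifit3, chr1:241527076-241527375, plus strand: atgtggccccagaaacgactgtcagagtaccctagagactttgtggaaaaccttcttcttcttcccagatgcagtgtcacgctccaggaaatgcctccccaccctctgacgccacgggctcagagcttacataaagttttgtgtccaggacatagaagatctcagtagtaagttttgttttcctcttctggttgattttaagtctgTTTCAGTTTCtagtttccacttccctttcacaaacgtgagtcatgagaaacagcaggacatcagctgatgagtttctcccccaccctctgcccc
Lgals3bp, chr10:104127799-104128098, minus strand: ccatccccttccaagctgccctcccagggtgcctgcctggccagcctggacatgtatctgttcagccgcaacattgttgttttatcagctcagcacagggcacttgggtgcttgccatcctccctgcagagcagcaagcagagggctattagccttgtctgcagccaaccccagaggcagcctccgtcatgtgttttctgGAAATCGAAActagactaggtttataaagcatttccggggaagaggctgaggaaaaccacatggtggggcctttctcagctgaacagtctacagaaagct
In Oas1a a pair of overlapping cores makes 1 longer run of capitals. A match is a description of these letters only, and no binding was measured.

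**Figure D1:**
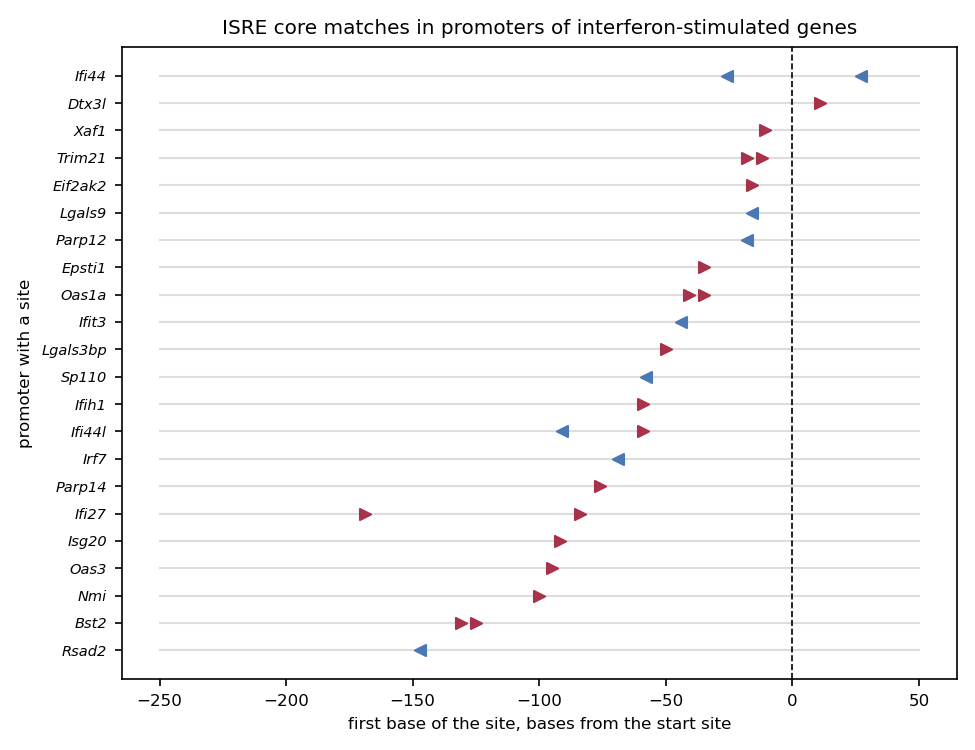
Positions of the 28 ISRE core matches in the 22 promoters that hold one. The x axis gives the first base of each match in bases from the start site (dashed line), right-pointing red triangles lie on the gene's strand and left-pointing blue ones on the opposite strand, and most matches lie within 100 bases before the start.

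Total counts per library ranged from 14.3e6 to 62.7e6 and from 16.6e6 to 22.5e6 in sham rats. The mean log2 CPM of the 46 tested genes was 4.05 to 4.53 in sham PBS libraries, 5.46 to 5.59 in irradiated PBS and 6.42 to 7.14 in irradiated LPS libraries. In sham LPS libraries 2, 3 and 4 it was 5.22, 5.96 and 5.11, but 4.42 in sham LPS 1, inside the sham PBS range. Sham LPS 1 was the lowest of its group for 41 of the 46 genes, although its Socs3, an LPS-induced feedback inhibitor, was 750 CPM against 621 to 936 in the other sham LPS libraries and 15.9 to 25.7 in sham PBS. Fold changes for LPS in sham rats with a printed test are therefore given with and without it. Changes with irradiation and LPS are also measured against the sham LPS libraries, and are given with sham LPS 1 kept in unless stated. Microglial markers dominated every library, with summed levels of 63413 to 70629 CPM in sham PBS, 60270 to 65801 in sham LPS, 36660 to 45692 in irradiated PBS and 33186 to 41457 in irradiated LPS, and 10 of the 14 tested fell in each irradiation comparison. Markers of border-associated macrophages, which lie along vessels and meninges, summed to 400 to 469, 480 to 1067, 1336 to 1655 and 3156 to 4340 CPM in the same order of groups, and 9 of 10 rose in each irradiation comparison. Monocyte markers summed to 160 to 245, 298 to 412, 437 to 527 and 605 to 1004 CPM, with 8 of 10 risen in each. T and NK cell markers summed to 17.2 to 25.5, 22.1 to 197, 102 to 191 and 524 to 1046 CPM, with 12 of 12 risen with irradiation and PBS and 10 of 12 with irradiation and LPS. B cell markers summed to 54.8 to 83.3, 7.95 to 9.92, 95.6 to 148 and 30 to 63.1 CPM, with 2 of 5 and 3 of 5 risen. Markers of plasmacytoid dendritic cells summed to 57 to 67, 53.8 to 88, 59.6 to 87.3 and 69.4 to 84.8 CPM, with 0 of 6 risen in each. Neutrophil markers summed to 322 to 404, 243 to 295, 230 to 303 and 364 to 2289 CPM, and 8 of 9 rose with LPS in irradiated rats. By library, irradiated LPS 1 to 4 gave 2289, 585, 461 and 364 CPM. Irradiated LPS 1 was also the highest of its group for 26 of the 46 ISGs. The neutrophil marker Mpo was at 0 in every library. No marker of the other lists named here was at 0 in every library. Over all genes tested, 11.5% rose and 9.91% fell with irradiation and PBS, and 15.1% and 12.6% with irradiation and LPS. With LPS in irradiated rats 17.0% of all genes rose. Sham LPS 1 was the lowest of its group for border-associated macrophage markers (480 CPM) and for T and NK markers (22.1 CPM). The part of these other cells in the ISG results below was not tested, and in bulk samples fewer cells of a type and less RNA per cell cannot be told apart.

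ISGs were higher after irradiation, higher after LPS, and highest where irradiated rats received LPS. The mean CPM was highest in irradiated LPS rats for 41 of the 46 genes and lowest in sham PBS rats for 36. The same order was not counted over all genes tested, so these 2 counts have no background share. Genes are called where the edgeR quasi-likelihood test gave a Benjamini-Hochberg adjusted p under 0.05 over all 13608 genes. With irradiation and PBS, 22 of 46 genes rose and 0 fell (median log2 fold change 0.78), where 11.5% of all genes tested rose and 9.91% fell. With irradiation and LPS, 38 rose and 0 fell (median 1.28), against 15.1% and 12.6% of all genes. Mx2 and Ifi27 were no longer called there without sham LPS 1. Log2 changes without it were 2.17 for Irf7, 2.68 for Samhd1, 3.14 for Oas2 and 0.72 for Stat2, against 2.49, 2.99, 3.51 and 0.81 with it. Not every change was smaller, as Trim21 gave 0.28 against 0.24. With LPS in sham rats, 21 rose and 2 fell (median 0.72), against 15.2% and 14.5% of all genes. Without sham LPS 1, 27 rose, with Mx1, Mx2, Oas3, Parp12, Ifi44 and Ifi44l added. Without sham LPS 3, which was the highest of its group for 36 genes, 15 rose. With LPS in irradiated rats, 31 rose and 1 fell (median 1.27), against 17.0% and 14.5% of all genes. Medians over all genes tested lay between -0.02 and 0.01. The comparisons share groups, so their counts are not independent. Scaling by library totals alone moved the median of all genes to 0.151 for irradiation with PBS and to -0.139 for LPS in irradiated rats. It gave 2331 genes higher and 725 lower for irradiation with PBS, against 1566 and 1348 with TMM, and 1784 and 2768 for LPS in irradiated rats, against 2309 and 1968. On that scale 30 ISGs rose with irradiation and PBS and 30 with LPS in irradiated rats. Directions of the called ISGs were the same under each scaling tried.

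**Figure D2:**
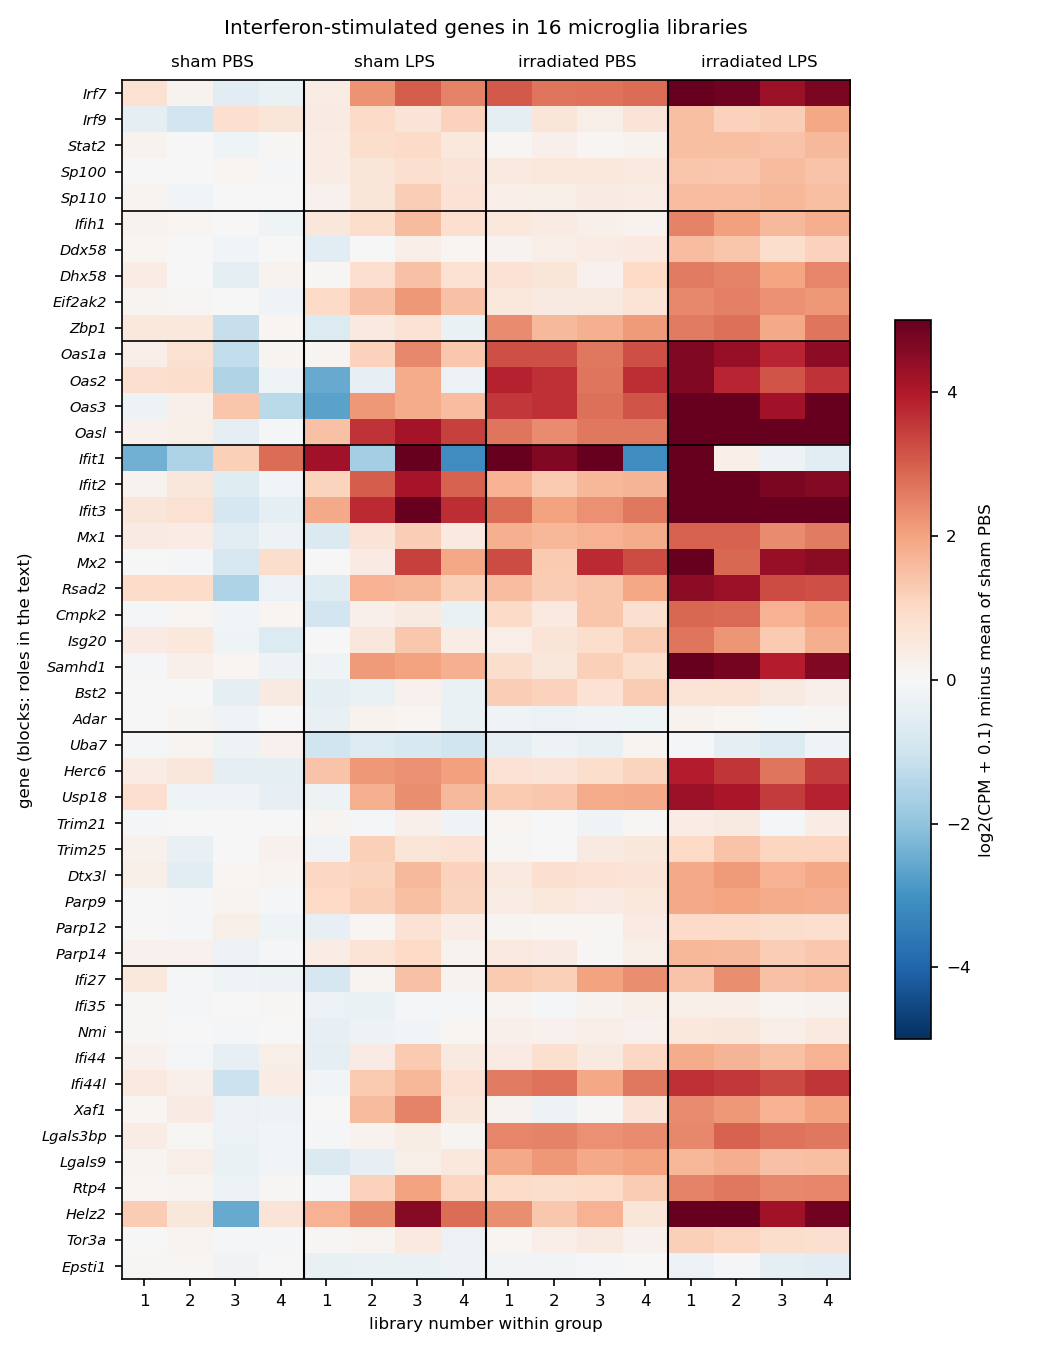
Level of the 46 tested ISGs in the 16 libraries, as log2 of CPM plus 0.1 minus the mean of the sham PBS libraries, with libraries 1 to 4 of each group on the x axis and genes in blocks by role on the y axis. Colours end at 5 in either direction; the irradiated LPS columns are the reddest for most genes and sham LPS 1 is close to the sham PBS columns.

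Transcription factors come first in the pathway. In this block (Irf7, Irf9, Stat2, Sp100 and Sp110) 4 of 5 genes rose with LPS in sham rats, 4 with LPS in irradiated rats, 2 with irradiation and PBS and 4 with irradiation and LPS. Irf7 (ENSRNOG00000017414), the interferon regulatory factor that amplifies type I interferon production, stood at 26.6, 17.9, 10.6 and 12.5 CPM in sham PBS libraries 1 to 4 and at 20.3, 74.6, 131 and 88 in sham LPS 1 to 4. It stood at 133, 101, 104 and 109 in irradiated PBS and at 561, 470, 315 and 419 in irradiated LPS libraries, in the same library order that is used for every gene. All irradiated libraries lay above all sham PBS libraries, and sham LPS 1 lay within the sham PBS range. Irf7 rose with irradiation by 2.73 ± 0.45 (adjusted p = 0.000633) on the log2 scale (± SE, n = 4 per group) with PBS and by 2.49 ± 0.44 (adjusted p = 0.000716) with LPS. It rose with LPS by 2.22 ± 0.44 (adjusted p = 0.00188) in sham rats, or 2.54 ± 0.29 (adjusted p = 1.69e-05) without sham LPS 1, and by 1.99 ± 0.43 (adjusted p = 0.00293) in irradiated rats.

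Stat2 (ENSRNOG00000031081), a subunit of the ISRE-binding complex, gave 167, 146, 127 and 153 CPM in sham PBS and 192, 271, 284 and 215 in sham LPS. Its levels were 154, 175, 159 and 168 in irradiated PBS and 421, 417, 398 and 456 in irradiated LPS. The PBS groups overlapped each other, while the LPS groups stood clear of the PBS groups and of each other. LPS raised Stat2 by 0.70 ± 0.11 (adjusted p = 0.000127) in sham rats, or 0.79 ± 0.10 (adjusted p = 2.24e-05) without sham LPS 1, and by 1.37 ± 0.11 (adjusted p = 7.1e-08) in irradiated rats, and irradiated exceeded sham rats by 0.81 ± 0.11 (adjusted p = 2.32e-05) with LPS. The difference with PBS was 0.15 ± 0.11 (adjusted p = 0.397). Irf9 (ENSRNOG00000019478), the DNA-binding subunit of the same complex, was near the detection limit at 0.182, 0.0997, 0.598 and 0.495 CPM in sham PBS and 0.425, 0.663, 0.516 and 0.771 in sham LPS, then 0.187, 0.499, 0.385 and 0.51 in irradiated PBS and 1.02, 0.762, 0.81 and 1.4 in irradiated LPS. Its irradiated LPS libraries lay above all irradiated PBS ones, but the difference did not pass the test, 1.31 ± 0.59 (adjusted p = 0.101). Whether the counting missed reads of Irf9 was not tested. The nuclear body genes Sp100 and Sp110 rose with LPS in both settings by 0.61 to 1.20 on the log2 scale and with irradiation and LPS by 0.82 and 0.81, with SDs within a group of at most 35.1 CPM.

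Nucleic acid sensors are the RIG-I-like helicases, ZBP1 and the RNA-activated kinase PKR. All 5 tested sensors rose with irradiation and LPS, 4 of 5 with LPS in irradiated rats, 3 with LPS in sham rats and 2 with irradiation and PBS. Ifih1 (ENSRNOG00000006227), which encodes the long double-stranded RNA sensor MDA5, gave 33.5, 31.6, 29.6 and 25.4 CPM in sham PBS and 44.3, 54.9, 89.7 and 54.2 in sham LPS. In irradiated rats it gave 43.2, 39.7, 35.6 and 33.6 with PBS and 167, 123, 91.8 and 106 with LPS. No LPS library overlapped a PBS library of the same irradiation status. Ifih1 rose with LPS by 1.02 ± 0.20 (adjusted p = 0.000917) in sham rats, or 1.14 ± 0.20 (adjusted p = 0.00032) without sham LPS 1, and by 1.68 ± 0.20 (adjusted p = 5.86e-06) in irradiated rats, and with irradiation and LPS by 1.00 ± 0.20 (adjusted p = 0.000903). Ddx58 (ENSRNOG00000006384), which encodes RIG-I, gave 60.1, 57.5, 51.1 and 57.5 CPM in sham PBS and 37.8, 56.8, 71.2 and 59.7 in sham LPS, 2 overlapping groups. It gave 64.2, 70.3, 72.2 and 78.9 in irradiated PBS and 165, 148, 104 and 127 in irradiated LPS, where all 4 libraries exceeded every other library. The LPS difference for Ddx58 was -0.00 ± 0.16 (adjusted p = 0.99) in sham rats, or 0.15 ± 0.13 (adjusted p = 0.457) without sham LPS 1, and 0.93 ± 0.16 (adjusted p = 0.000176) in irradiated rats, and irradiation with LPS raised it by 1.27 ± 0.16 (adjusted p = 8.3e-06).

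Eif2ak2 (ENSRNOG00000048315), the gene of PKR, which halts translation on sensing double-stranded RNA, was 68.8, 64.9, 62.1 and 55.4 CPM in sham PBS and 120, 175, 279 and 172 in sham LPS. Its irradiated levels were 89.1, 84.7, 84.4 and 101 with PBS and 329, 356, 303 and 282 with LPS. The 4 groups did not overlap in any of the pairwise comparisons. Eif2ak2 rose with LPS by 1.57 ± 0.18 (adjusted p = 4.66e-06) in sham rats, or 1.73 ± 0.14 (adjusted p = 1.82e-07) without sham LPS 1, and 1.82 ± 0.18 (adjusted p = 6.6e-07) in irradiated rats, and with irradiation by 0.52 ± 0.17 (adjusted p = 0.0441) with PBS and 0.77 ± 0.17 (adjusted p = 0.00289) with LPS. The rise with irradiation and PBS was lost in 17 of 24 alternatives, with adjusted p up to 0.116. Every library of either PBS group lost it when left out, as did each irradiated LPS library and sham LPS 2 or 4. Zbp1, a sensor of Z-form nucleic acid, rose with irradiation (1.89 with PBS and 2.36 with LPS) and differed by 0.03 with LPS in sham rats, or 0.23 without sham LPS 1, and by 0.50 in irradiated rats, none called.

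All 4 oligoadenylate synthetase genes rose with irradiation, by 2.57 to 3.32 on the log2 scale with PBS and by 2.34 to 3.61 with LPS. These enzymes make short oligoadenylates that activate the RNA-degrading enzyme RNase L, and Oasl is a relative of theirs. Counting across such close paralogs can split reads between copies, so the share of each copy is uncertain. Oas1a (ENSRNOG00000001369) stood at 4.08, 5.68, 1.33 and 3.61 CPM in sham PBS, at 3.64, 7.4, 17.7 and 8.37 in sham LPS, at 30.9, 31.1, 21 and 31.7 in irradiated PBS and at 83.3, 69.4, 47.2 and 74.7 in irradiated LPS. Every irradiated library exceeded every sham library. Oas1a rose with irradiation by 2.97 ± 0.44 (adjusted p = 0.000159) with PBS and by 2.88 ± 0.42 (adjusted p = 9.59e-05) with LPS. The LPS changes were 1.34 ± 0.43 (adjusted p = 0.0287) in sham rats, or 1.61 ± 0.38 (adjusted p = 0.0055) without sham LPS 1, and 1.26 ± 0.39 (adjusted p = 0.0226) in irradiated rats. The first was lost in 7 of 24 alternatives (adjusted p 0.0536 to 0.13), among them without sham PBS 1, 3 or 4 or sham LPS 3. The second was lost in 5 (0.052 to 0.084), among them without irradiated PBS 3 or irradiated LPS 1 or 4.

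Oas2 (ENSRNOG00000049282) gave 3.47, 3.54, 0.598 and 1.63 CPM in sham PBS and 0.243, 1.38, 7.16 and 1.54 in sham LPS. In irradiated rats it gave 28.6, 24.6, 12.6 and 25.5 with PBS and 49, 27.9, 17.6 and 24.1 with LPS. The sham groups overlapped each other, the irradiated groups overlapped each other, and no irradiated library overlapped a sham one. Irradiation raised Oas2 by 3.32 ± 0.72 (adjusted p = 0.00403) with PBS and 3.51 ± 0.72 (adjusted p = 0.00195) with LPS, whereas the LPS differences were 0.18 ± 0.73 (adjusted p = 0.885) in sham rats, or 0.55 ± 0.65 (adjusted p = 0.581) without sham LPS 1, and 0.38 ± 0.63 (adjusted p = 0.706) in irradiated rats. Oas3 (ENSRNOG00000059207), the family member with the greatest preference for long double-stranded RNA, gave 0.426, 0.648, 1.56 and 0.148 CPM in sham PBS, 0, 2.76, 2.18 and 1.76 in sham LPS, 7.34, 7.88, 4.18 and 5.47 in irradiated PBS and 25.4, 23.9, 11.4 and 21.7 in irradiated LPS. The groups ordered as sham, irradiated PBS and irradiated LPS without overlap. Oas3 rose with irradiation by 3.12 ± 0.70 (adjusted p = 0.0045) with PBS and by 3.61 ± 0.67 (adjusted p = 0.000767) with LPS. Its rise with LPS in irradiated rats, 1.73 ± 0.61 (adjusted p = 0.0409), was lost in 14 of 24 alternatives (adjusted p up to 0.116), among them without any single irradiated library other than irradiated LPS 3, or without sham PBS 2 or sham LPS 4. In sham rats the LPS difference of Oas3 was 1.24 ± 0.72 (adjusted p = 0.216), and 1.65 ± 0.49 (adjusted p = 0.018) without sham LPS 1.

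Oasl (ENSRNOG00000001187) was 7.18, 7.62, 4.37 and 5.89 CPM in sham PBS and 17.3, 75.4, 110 and 65.9 in sham LPS. It was 40.1, 32.2, 38.2 and 38.4 in irradiated PBS and 410, 392, 237 and 322 in irradiated LPS. Sham LPS 1 was the lowest of its group but lay above all sham PBS libraries. LPS raised Oasl by 3.43 ± 0.43 (adjusted p = 4.44e-05) in sham rats and by 3.19 ± 0.41 (adjusted p = 3.87e-05) in irradiated rats, and without sham LPS 1 the sham value was 3.74 ± 0.22 (adjusted p = 7.34e-09). Irradiation raised it by 2.57 ± 0.42 (adjusted p = 0.000534) with PBS and by 2.34 ± 0.39 (adjusted p = 0.000468) with LPS. Oasl was the only gene of the family whose LPS call in sham rats held in all 24 alternatives.

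**Figure D3:**
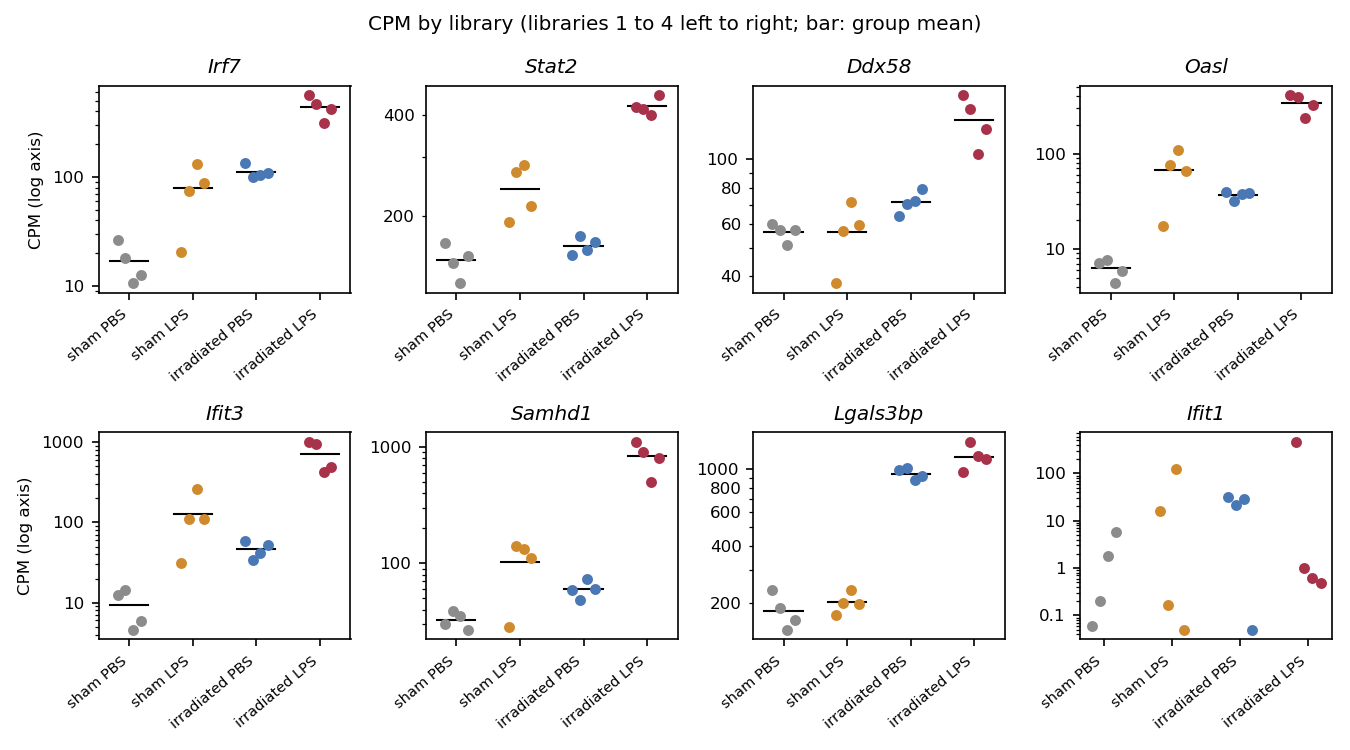
CPM of 8 ISGs in every library on log axes, with libraries 1 to 4 of a group from left to right and a bar at the group mean (none for Ifit1). Values of 0 for Ifit1 are drawn at 0.05; irradiated LPS libraries are the highest for Irf7, Stat2, Ddx58, Oasl, Ifit3 and Samhd1, while Lgals3bp separates by irradiation.

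Effectors that act on viral RNA, nucleotides or particles formed the next block of 11 tested genes. With LPS 3 of 11 rose in sham rats and 7 in irradiated rats, where 1 fell. With irradiation 6 rose with PBS and 9 with LPS. Ifit3 (ENSRNOG00000022839), one of the tetratricopeptide proteins that bind viral RNA as a complex with IFIT1 and IFIT2, stood at 12.6, 14.2, 4.6 and 5.89 CPM in sham PBS and 31.1, 112, 264 and 110 in sham LPS. Its irradiated levels were 58.6, 34, 41.6 and 52.6 with PBS and 1014, 952, 431 and 494 with LPS. No pair of groups compared overlapped. Ifit3 rose with LPS by 3.80 ± 0.61 (adjusted p = 0.000432) in sham rats (14-fold), or 4.13 ± 0.49 (adjusted p = 5e-05) without sham LPS 1, and by 3.95 ± 0.60 (adjusted p = 0.000221) in irradiated rats (15.5-fold), the largest called LPS changes among the ISGs in either setting. With irradiation it rose by 2.33 ± 0.58 (adjusted p = 0.0115) with PBS and by 2.48 ± 0.56 (adjusted p = 0.00468) with LPS. 

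Ifit2 (ENSRNOG00000036604) followed the same order, with 24.1, 31.6, 13.9 and 19.2 CPM in sham PBS, 46.3, 175, 374 and 165 in sham LPS, 71.9, 53.4, 68.1 and 69.8 in irradiated PBS and 821, 828, 554 and 520 in irradiated LPS. LPS raised Ifit2 by 3.10 ± 0.49 (adjusted p = 0.000343) in sham rats, or 3.42 ± 0.32 (adjusted p = 3.63e-06) without sham LPS 1, and by 3.37 ± 0.49 (adjusted p = 0.000139) in irradiated rats. Irradiation raised it by 1.57 ± 0.47 (adjusted p = 0.0286) with PBS and by 1.84 ± 0.46 (adjusted p = 0.00846) with LPS. The rise with irradiation and PBS was lost in 9 of 24 alternatives (adjusted p 0.0553 to 0.0824), among them without sham PBS 1, 3 or 4 or irradiated PBS 1, 3 or 4, and the rise with LPS in the fit of only the groups compared (adjusted p = 0.0535). Ifit1 (ENSRNOG00000019050) did not follow Ifit2 and Ifit3. It gave 0.0608, 0.199, 1.84 and 5.79 CPM in sham PBS, 15.8, 0.166, 126 and 0 in sham LPS, 32.2, 21.2, 28.6 and 0 in irradiated PBS and 463, 0.989, 0.623 and 0.483 in irradiated LPS. Libraries of 1 group thus ran from 0 or under 1 CPM to far higher levels in all but sham PBS, and all groups overlapped. No Ifit1 difference passed the test, for example 4.13 ± 2.54 (adjusted p = 0.255) for LPS in sham rats, or 4.38 ± 2.73 (adjusted p = 0.27) without sham LPS 1, and 1.70 ± 2.13 (adjusted p = 0.619) for irradiation with LPS. Ifit1 has close relatives in rodents, and how reads that match several of them were counted is not given in the sources used here.

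Mx1 (ENSRNOG00000001959), a dynamin-like GTPase that blocks viral replication, was 104, 103, 54 and 66.9 CPM in sham PBS and 47.5, 123, 183 and 110 in sham LPS. With irradiation it was 273, 250, 266 and 285 with PBS and 605, 610, 408 and 473 with LPS. All irradiated libraries exceeded all sham libraries. Mx1 rose with irradiation by 1.71 ± 0.32 (adjusted p = 0.00135) with PBS and by 2.17 ± 0.32 (adjusted p = 0.00014) with LPS. LPS gave 0.50 ± 0.31 (adjusted p = 0.255) in sham rats, or 0.76 ± 0.22 (adjusted p = 0.018) without sham LPS 1, and 0.96 ± 0.31 (adjusted p = 0.029) in irradiated rats. The last was lost in 9 of 24 alternatives (adjusted p 0.0542 to 0.107), among them without any irradiated PBS library or irradiated LPS 1 or 2. Its paralog Mx2 (ENSRNOG00000001963) gave 20.9, 20.1, 12 and 38.4 CPM in sham PBS, 21.4, 28.1, 225 and 81.1 in sham LPS, 200, 51.6, 283 and 202 in irradiated PBS and 753, 154, 433 and 482 in irradiated LPS, a wide spread within groups. Irradiation raised Mx2 by 3.01 ± 0.81 (adjusted p = 0.0175) with PBS and by 2.35 ± 0.78 (adjusted p = 0.039) with LPS. LPS gave 1.96 ± 0.78 (adjusted p = 0.0777) in sham rats, called without sham LPS 1, 2.29 ± 0.75 (adjusted p = 0.0416), and by DESeq2 (adjusted p = 0.0204), and 1.31 ± 0.75 (adjusted p = 0.218) in irradiated rats. The first irradiation call was lost without sham PBS 1, 2 or 3 (adjusted p up to 0.0547). The second irradiation call was lost in 13 of 24 alternatives (up to 0.115), among them without sham PBS 1 or 2, sham LPS 1, 2 or 4, irradiated PBS 1 or 4, or irradiated LPS 1, 3 or 4.

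Samhd1 (ENSRNOG00000006418), which depletes the nucleotides needed for reverse transcription, had the largest estimated difference between the LPS responses. This difference was not called, 2.10 ± 0.54 (adjusted p = 0.0881), except without sham LPS 1 or by DESeq2. Without that library it was 1.79 ± 0.29 (adjusted p = 0.00844). Samhd1 stood at 30.1, 38.9, 35.2 and 27 CPM in sham PBS and 28.2, 142, 133 and 111 in sham LPS. In irradiated rats it stood at 59.4, 48.3, 73.8 and 60.4 with PBS and 1098, 897, 494 and 804 with LPS. Sham LPS 1 lay within the sham PBS range, and all irradiated LPS libraries exceeded every other library. LPS raised Samhd1 by 1.66 ± 0.39 (adjusted p = 0.00525) in sham rats (3.16-fold), or 1.97 ± 0.21 (adjusted p = 6.31e-06) without sham LPS 1, and by 3.77 ± 0.42 (adjusted p = 1.11e-05) in irradiated rats (13.6-fold). Irradiation gave 0.88 ± 0.38 (adjusted p = 0.127) with PBS and 2.99 ± 0.40 (adjusted p = 7.34e-05) with LPS. Rsad2 (ENSRNOG00000007539), the gene of viperin, which makes a chain-terminating nucleotide, gave 7.6, 7.48, 1.29 and 3.22 CPM in sham PBS, 2.55, 13.5, 12.8 and 9.09 in sham LPS, 11.8, 9.71, 10.6 and 15.2 in irradiated PBS and 89.2, 80, 38.6 and 37.7 in irradiated LPS. All irradiated LPS libraries stood above every library of the other groups. Rsad2 rose with LPS in irradiated rats by 2.37 ± 0.53 (adjusted p = 0.00315) and with irradiation and LPS by 2.69 ± 0.54 (adjusted p = 0.0016), whereas LPS in sham rats gave 0.97 ± 0.54 (adjusted p = 0.203), or 1.28 ± 0.47 (adjusted p = 0.0587) without sham LPS 1.

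Bst2 (ENSRNOG00000059900), the gene of tetherin, which holds budding virus at the cell surface, fell with LPS in irradiated rats and was not called with LPS in sham rats. It was 9.06, 9.32, 6.44 and 12.5 CPM in sham PBS and 6.62, 7.13, 10.5 and 7.22 in sham LPS. It was 21.5, 20.3, 15.2 and 22.1 in irradiated PBS and 14.6, 14.5, 12.5 and 10.9 in irradiated LPS. Irradiation raised Bst2 by 1.08 ± 0.21 (adjusted p = 0.000909) with PBS and by 0.74 ± 0.21 (adjusted p = 0.012) with LPS. LPS gave -0.25 ± 0.21 (adjusted p = 0.415) in sham rats, or -0.17 ± 0.23 (adjusted p = 0.626) without sham LPS 1, and lowered it in irradiated rats, -0.59 ± 0.20 (adjusted p = 0.0334). That decrease was lost in 8 of 24 alternatives (adjusted p 0.0505 to 0.102), among them without irradiated PBS 1, 2 or 4 or irradiated LPS 3 or 4. Of the remaining effectors, Cmpk2, a nucleotide kinase gene, averaged 19.8 ± 1.58 CPM in sham PBS and 108 ± 41.2 in irradiated LPS (SD, n = 4), with a change of 2.50 for irradiation with LPS. Isg20, an exonuclease gene, rose by 1.44 in the same comparison. The RNA-editing gene Adar averaged 94.4 to 114 CPM over the groups and was not called in any comparison.

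Enzymes of ISG15 conjugation, ubiquitin and ADP-ribosylation gave 9 tested genes besides Isg15. Of these, 6 rose and 1 fell with LPS in sham rats, and 7 rose with LPS in irradiated rats. Irradiated exceeded sham rats for 3 with PBS and for 7 with LPS. Usp18 (ENSRNOG00000037198), which removes ISG15 and inhibits the receptor IFNAR2, stood at 25.4, 12.2, 12.7 and 10.7 CPM in sham PBS and 12, 49.3, 72.2 and 44.6 in sham LPS. It stood at 35.7, 36.2, 52.7 and 53.7 in irradiated PBS and 289, 245, 162 and 207 in irradiated LPS, the last above every other library. Usp18 rose with LPS by 1.56 ± 0.43 (adjusted p = 0.0144) in sham rats, or 1.87 ± 0.29 (adjusted p = 0.000253) without sham LPS 1, and by 2.34 ± 0.43 (adjusted p = 0.000864) in irradiated rats. With irradiation it rose by 1.56 ± 0.43 (adjusted p = 0.0188) with PBS and by 2.34 ± 0.43 (adjusted p = 0.000969) with LPS. The LPS call in sham rats was lost without sham LPS 3 (adjusted p = 0.0539), and the irradiation call with PBS without sham PBS 2, 3 or 4 (up to 0.0582).

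Uba7 (ENSRNOG00000029195), the enzyme that activates ISG15 for conjugation, fell with LPS in sham rats. Its levels were 76.7, 88.9, 68.9 and 95.2 CPM in sham PBS and 40.5, 50.4, 46.9 and 41.3 in sham LPS, 2 groups without overlap. In irradiated rats they were 59.4, 69.5, 63.1 and 89.9 with PBS and 78.2, 58.7, 51.3 and 70.4 with LPS, which overlapped. The LPS change was -0.88 ± 0.15 (adjusted p = 0.00024) in sham rats, or -0.83 ± 0.17 (adjusted p = 0.00109) without sham LPS 1, and -0.13 ± 0.15 (adjusted p = 0.573) in irradiated rats, and the difference between these responses was not called, 0.75 ± 0.21 (adjusted p = 0.0998). Irradiated exceeded sham rats given LPS by 0.53 ± 0.15 (adjusted p = 0.0126), a call lost without irradiated LPS 1 (adjusted p = 0.0508). Parp9 (ENSRNOG00000023463), which forms a pair with the ubiquitin ligase DTX3L, was 85.6, 79.9, 92.5 and 81.1 CPM in sham PBS, 171, 195, 239 and 185 in sham LPS, 110, 121, 114 and 121 in irradiated PBS and 314, 336, 309 and 301 in irradiated LPS. Its replicates were tight and no compared groups overlapped. Parp9 rose by 1.22 ± 0.09 (adjusted p = 3.22e-08) with LPS in sham rats, 1.28 ± 0.09 (adjusted p = 2.67e-08) without sham LPS 1, 1.43 ± 0.09 (adjusted p = 5.18e-09) with LPS in irradiated rats, 0.46 ± 0.09 (adjusted p = 0.00131) with irradiation and PBS and 0.67 ± 0.09 (adjusted p = 2.01e-05) with irradiation and LPS. Dtx3l itself rose in the same 4 comparisons, by 1.22 (1.28 without sham LPS 1), 1.28, 0.63 and 0.69 on the log2 scale.

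Trim25 (ENSRNOG00000002341), a ubiquitin ligase that activates RIG-I, gave 54.4, 36.4, 47 and 54.5 CPM in sham PBS and 42.4, 109, 71.4 and 77.5 in sham LPS. In irradiated rats it gave 49.8, 47.6, 64.4 and 69.7 with PBS and 94.4, 128, 100 and 100 with LPS. LPS raised Trim25 by 0.64 ± 0.22 (adjusted p = 0.0366) in sham rats and by 0.87 ± 0.22 (adjusted p = 0.00594) in irradiated rats, and neither irradiation comparison was called, 0.27 ± 0.22 (adjusted p = 0.435) with PBS and 0.50 ± 0.22 (adjusted p = 0.107) with LPS. The call in sham rats was lost in 8 of 24 alternatives (adjusted p 0.0624 to 0.146), among them without sham PBS 2 or 3 or sham LPS 2, 3 or 4, and the value was 0.84 ± 0.18 (adjusted p = 0.00185) without sham LPS 1. Herc6, the main ISG15 ligase of rodents, averaged 17.9 ± 6.73 CPM in sham PBS, 68.9 ± 16.5 in sham LPS, 30.6 ± 4.49 in irradiated PBS and 192 ± 62.9 in irradiated LPS. It rose with LPS in both settings, by 1.95 (2.10 without sham LPS 1) and 2.65, and with irradiation and LPS by 1.48. The antibody receptor and ubiquitin ligase gene Trim21 was not called in any comparison, with group means of 54.1 to 66.9 CPM.

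The remaining block held 12 ISGs of varied function, of which 3 rose and 1 fell with LPS in sham rats, 6 rose with LPS in irradiated rats, 5 with irradiation and PBS and 9 with irradiation and LPS. Lgals3bp (ENSRNOG00000003217), a secreted galectin-binding glycoprotein, was 234, 190, 146 and 163 CPM in sham PBS and 175, 202, 234 and 199 in sham LPS. With irradiation it was 986, 1010, 879 and 917 with PBS and 961, 1386, 1170 and 1125 with LPS. Irradiated and sham libraries were far apart, and the PBS and LPS libraries overlapped within each. Lgals3bp rose with irradiation by 2.37 ± 0.14 (adjusted p = 3.77e-09) with PBS and by 2.52 ± 0.14 (adjusted p = 1.15e-09) with LPS, the smallest adjusted p of any ISG in either comparison. LPS gave 0.14 ± 0.13 (adjusted p = 0.458) in sham rats, or 0.21 ± 0.14 (adjusted p = 0.301) without sham LPS 1, and 0.29 ± 0.13 (adjusted p = 0.103) in irradiated rats. The galectin gene Lgals9 also rose with irradiation, and averaged 14.3 ± 2.97, 14.1 ± 5.58, 56.5 ± 5.12 and 43.2 ± 4.94 CPM in sham PBS, sham LPS, irradiated PBS and irradiated LPS.

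Ifi27 (ENSRNOG00000009263), a small mitochondrial protein gene, was 94.6, 62.7, 57.7 and 55.8 CPM in sham PBS and 37, 73.6, 181 and 74.3 in sham LPS. It was 165, 151, 267 and 334 in irradiated PBS and 177, 334, 182 and 193 in irradiated LPS, with sham LPS 3 inside the range of the irradiated LPS libraries. Irradiation raised Ifi27 by 1.76 ± 0.43 (adjusted p = 0.00924) with PBS and by 1.28 ± 0.42 (adjusted p = 0.0378) with LPS, and LPS gave 0.44 ± 0.42 (adjusted p = 0.483) in sham rats, or 0.70 ± 0.38 (adjusted p = 0.2) without sham LPS 1, and -0.05 ± 0.41 (adjusted p = 0.949) in irradiated rats. The call with irradiation and LPS was lost in 10 of 24 alternatives (adjusted p 0.0501 to 0.109), among them without sham LPS 1, 2 or 4 or irradiated LPS 1, 2 or 4. Helz2 (ENSRNOG00000013267), a helicase that coactivates nuclear receptors, was 1.28, 0.748, 0 and 0.792 CPM in sham PBS, 1.82, 2.76, 13.4 and 3.8 in sham LPS, 2.74, 1.33, 1.78 and 0.766 in irradiated PBS and 24.5, 18.9, 10.3 and 16.1 in irradiated LPS. LPS raised Helz2 by 2.97 ± 0.75 (adjusted p = 0.00672) in sham rats, or 3.26 ± 0.73 (adjusted p = 0.0035) without sham LPS 1, and by 3.42 ± 0.71 (adjusted p = 0.00163) in irradiated rats. The irradiation differences were 1.24 ± 0.76 (adjusted p = 0.284) with PBS and 1.68 ± 0.65 (adjusted p = 0.0678) with LPS, the second called without sham PBS 3 (adjusted p = 0.0249) or sham LPS 3 (adjusted p = 0.00521).

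Epsti1 (ENSRNOG00000009471), a gene first described in epithelial cells cultured with stromal cells, was the other ISG that fell with LPS in sham rats. It gave 86.9, 90.7, 75.1 and 83.9 CPM in sham PBS, 65.7, 67.1, 66.6 and 69.9 in sham LPS, 76.3, 77.1, 80 and 85 in irradiated PBS and 69.3, 80.6, 61.4 and 57.5 in irradiated LPS. The fall was -0.32 ± 0.10 (adjusted p = 0.0187), -0.31 ± 0.11 (adjusted p = 0.0421) without sham LPS 1, and was lost without sham PBS 2 (adjusted p = 0.0599). In irradiated rats the LPS difference was -0.24 ± 0.10 (adjusted p = 0.0653). Among the others, Ifi44l rose by 2.41 with irradiation and PBS and 2.49 with irradiation and LPS, and Rtp4 rose in all 4 comparisons by 1.00 to 1.49. The Rtp4 rise with irradiation and PBS was lost without the filter, without sham PBS 3 or without irradiated PBS 4 (adjusted p 0.0598 to 0.0693). Xaf1, an apoptosis-related gene, rose with LPS by 1.45 in sham rats (1.73 without sham LPS 1) and 1.89 in irradiated rats. Its call in sham rats was lost in 4 of 24 alternatives (adjusted p 0.0519 to 0.0697), among them without sham PBS 3 or sham LPS 3, and it was called with irradiation and LPS only without sham LPS 3 (adjusted p = 0.0106). Ifi35 and Nmi, whose proteins bind each other, rose only with irradiation and LPS, by 0.41 and 0.64, among the pairwise comparisons.

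**Figure D4:**
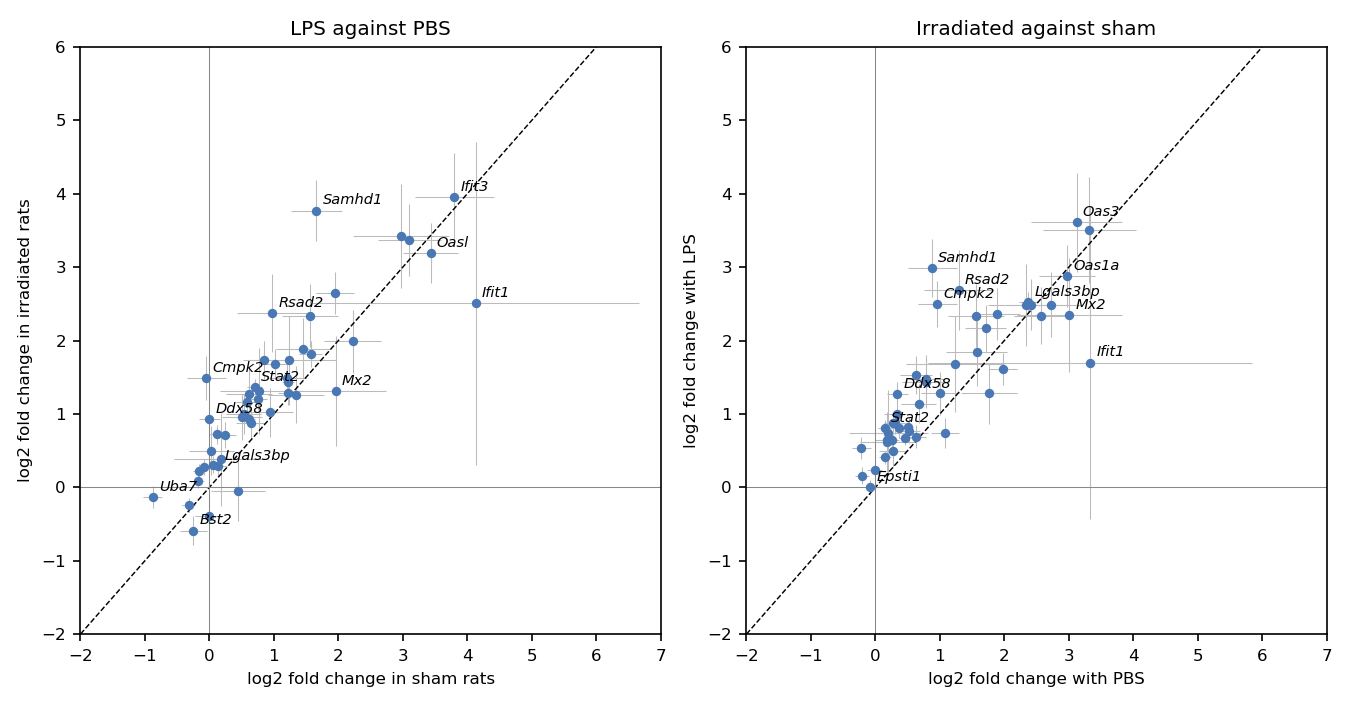
Log2 fold changes ± SE of the 46 tested ISGs, with LPS against PBS in irradiated (y) and sham rats (x) on the left, and irradiated against sham with LPS (y) and with PBS (x) on the right. The dashed line marks equal changes; Samhd1, Cmpk2 and Ddx58 lie above it on both sides, and the axes of a panel share no group.

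Set side by side, the calls sorted the ISGs into groups. The same joint patterns were not counted over all genes tested, so the sizes of these groups of genes have no background share. Rising in all 4 pairwise comparisons were 11 genes, namely Irf7, Sp100, Eif2ak2, Oas1a, Oasl, Ifit2, Ifit3, Usp18, Dtx3l, Parp9 and Rtp4. All 4 calls held in every alternative for 6 of them, Irf7, Sp100, Oasl, Ifit3, Dtx3l and Parp9. A further 10 rose with LPS in both settings and were not called with irradiation and PBS, among them Stat2, Ifih1, Samhd1, Herc6 and Helz2. Of these, Samhd1, Dhx58 and Sp110 were called with irradiation and PBS without sham LPS 1 (adjusted p 0.00479, 0.0392 and 0.0292), Dhx58 and Sp110 also without sham LPS 3, and Herc6 without sham PBS 2 or irradiated LPS 3. Another 7 rose in both irradiation comparisons and with LPS in neither setting, namely Zbp1, Oas2, Mx2, Bst2, Ifi27, Lgals3bp and Lgals9. For Mx2 this rests on sham LPS 1 and on the method, as its LPS difference in sham rats was called without that library or by DESeq2. For Lgals3bp it rests on irradiated LPS 1, without which its LPS difference in irradiated rats was called (adjusted p = 0.0433). In 6 genes (Ddx58, Rsad2, Isg20, Parp12, Ifi44 and Tor3a) LPS raised the level in irradiated rats, and neither LPS in sham rats nor irradiation with PBS was called. Without sham LPS 1, LPS in sham rats was called for Parp12 (0.41, adjusted p = 0.0436) and Ifi44 (0.76, adjusted p = 0.0145), and irradiation with PBS for Ifi44 (0.67, adjusted p = 0.0252), which was also called without sham LPS 3. Without both irradiated libraries numbered 1, the LPS calls of Isg20 and Ifi44 in irradiated rats were lost (adjusted p = 0.108 and 0.0607). Irf9, Ifit1, Adar, Trim21 and Epsti1 rose in no comparison. A call in one comparison and none in another does not show that they differ, which is what the interaction tested.

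The interaction, the LPS response of irradiated rats minus that of sham rats, was called for 2 of 46 ISGs, both larger after irradiation, where 1.26% of all genes tested were called, 0.610% higher and 0.647% lower. Its estimate was above 0 for 38 of the 46 and for 6961 of all 13608 genes, with medians of 0.38 and 0.01. The 46 estimates all use sham LPS 1, the lowest of its group for 41 of these genes, so they are not independent of each other. Scaling by library totals alone gave 63 genes higher and 162 lower, against 83 and 88 with TMM. For Stat2 the interaction was 0.67 ± 0.16 (adjusted p = 0.0455), lost in 15 of 23 alternatives (adjusted p up to 0.11), among them without any library except sham PBS 3, sham LPS 2, sham LPS 3 and irradiated LPS 3. For Ddx58 it was 0.93 ± 0.22 (adjusted p = 0.047), lost in 16 of 23 (up to 0.146), among them without any library except sham LPS 1, sham LPS 3 and irradiated LPS 3. Samhd1 had the largest estimate at 2.10 ± 0.54 (adjusted p = 0.0881), and it was called without sham LPS 1, 1.79 ± 0.29 (adjusted p = 0.00844). DESeq2 called 5 ISGs (Stat2, Ddx58, Samhd1, Cmpk2 and Uba7), all larger after irradiation. For genes such as Irf7 (-0.24 ± 0.60 (adjusted p = 0.936)), Oasl (-0.23 ± 0.55 (adjusted p = 0.93)) and Ifit3 (0.15 ± 0.78 (adjusted p = 0.972)) no difference between the LPS responses was detectable with 4 libraries per group. Without sham LPS 1 these 3 gave -0.55 ± 0.38 (adjusted p = 0.648), -0.55 ± 0.29 (adjusted p = 0.479) and -0.18 ± 0.62 (adjusted p = 0.956).

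Of the wider interferon pathway, 46 genes were listed, 40 were found and 31 were tested. The other 6 were not analysed here. None of the 8 interferon genes found passed the filter. Ifnb1, the interferon beta gene, gave 0, 0.0498, 0 and 0.0495 CPM in sham PBS, 0 in every sham LPS library and 0, 0, 0 and 0.146 in irradiated PBS. In irradiated LPS it gave 0.256, 0.389, 0 and 0.0537 CPM, where 3 counts are 0.0478 to 0.158 CPM. Only irradiated LPS 1 and 2 lay above that range, and no difference of Ifnb1 was tested. Ifng, the interferon gamma gene made by T and NK cells, had 0 counts in all 8 sham libraries (a limit of 3 counts, 0.133 to 0.181 CPM). It gave 0.0622, 0.0555, 0.144 and 0.182 CPM in irradiated PBS, within or under the 0.12 to 0.21 CPM of 3 counts there. In irradiated LPS it gave 0.769, 0.373, 1.06 and 0.591 CPM, above the 0.0478 to 0.158 CPM of 3 counts there. Summed T and NK markers were 17.2 to 25.5 CPM in sham PBS and 22.1 to 197 in sham LPS. They were 102 to 191 CPM in irradiated PBS and 524 to 1046 in irradiated LPS. The part of T and NK cells in the Ifng counts was not tested.

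Of the 31 tested pathway genes, 16 rose and 8 fell with LPS in sham rats, 17 rose and 6 fell with LPS in irradiated rats, 3 rose and 7 fell with irradiation and PBS, and 7 and 7 with irradiation and LPS. In the same order, 15.2%, 17.0%, 11.5% and 15.1% of all genes rose and 14.5%, 14.5%, 9.91% and 12.6% fell, so the share of pathway genes that rose with irradiation and PBS (9.7%) was near the background. Among receptors, Ifnar1 rose in all 4 comparisons, by 0.29 ± 0.09 and 0.36 ± 0.09 with LPS in sham and irradiated rats and by 0.66 ± 0.09 and 0.72 ± 0.09 with irradiation given PBS and LPS. Ifngr1, the interferon gamma receptor chain, rose with LPS (0.86 ± 0.09 and 0.75 ± 0.09) and fell with irradiation (-0.57 ± 0.09 and -0.68 ± 0.09). Of the kinases, Jak2 rose in all 4 comparisons and Tyk2 fell with LPS (-0.54 ± 0.19 and -0.82 ± 0.19).

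Irf1, an immediate interferon and NF-kB target, rose with LPS by 2.51 ± 0.18 and 2.36 ± 0.17, and its irradiation differences were 0.09 ± 0.17 and -0.06 ± 0.17. Irf5 fell in all 4 comparisons, by 0.40 to 0.99 on the log2 scale. Upstream of interferon, the DNA sensor gene Cgas rose with LPS (2.12 ± 0.50 and 1.59 ± 0.49), while its adaptor gene Sting1 fell with irradiation (-0.53 ± 0.08 and -0.50 ± 0.08). Sham LPS 1 gave 3.95 CPM of Cgas, inside the sham PBS range of 2.31 to 6.48. Sham LPS 2, 3 and 4 gave 16.2, 37.4 and 15.3 CPM. Fold changes of pathway genes are given with sham LPS 1 kept in. Tlr3, Tlr7 and Ticam2 fell in both irradiation comparisons. Among inhibitors, Socs1 rose with LPS by 4.62 ± 0.69 in sham rats and 2.33 ± 0.59 in irradiated rats and with irradiation and PBS by 2.30 ± 0.68. Its sham PBS libraries gave 0.243, 0.0997, 0.046 and 0.445 CPM, so changes against sham PBS start near the detection limit. These libraries overlapped irradiated PBS, at 0.809, 0.388, 1.2 and 1.68 CPM. The difference between the LPS responses of Socs1 was not called (-2.29 ± 0.87, adjusted p = 0.277).

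Calls were also counted by promoter match. Of the 22 matched ISGs with an ISRE core, 9 rose with LPS in sham rats, 15 with LPS in irradiated rats, 11 with irradiation and PBS and 19 with irradiation and LPS. Of the 14 without one in the 300 bases searched, 8, 11, 5 and 11 rose. Lgals3bp and Irf7, whose promoters are printed above with 1 core each at positions -50 and -69, had LPS changes in sham rats of 0.14 ± 0.13 and 2.22 ± 0.44 and irradiation changes with PBS of 2.37 ± 0.14 and 2.73 ± 0.45. No motif count was tested against the calls.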

How the data were processed

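RNA was sequenced from 16 microglia samples of 4 groups. The authors deposited whole-number read counts per gene, as single-sample tables and as a matrix summed by symbol, and 0 of 349472 cells differed between them. HTSeq 2.0.2, the trimmer fastp 0.23.2, the quality tool FastQC 0.11.9 and the build mRatBN7.2 appear in the submitters' processing notes. Aligner, annotation release and strand setting were not given in the sources used here. Counts were fitted in R 4.3.3 with edgeR 4.0.16 (TMM, filterByExpr, robust quasi-likelihood, 1 coefficient per group), with Benjamini-Hochberg adjustment over 13608 genes and calls under 0.05. The SE is the log2 fold change over the root of F. CPM are TMM-scaled, and log2 CPM used a prior count of 2. The common biological coefficient of variation was 0.289. All 24 pairs of libraries within a group differed beyond counting noise (chi-square over its degrees of freedom 20.6 to 80.8).

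The genes and lists were chosen with earlier results of these data known. Values per library are given for a panel of 18 genes and for the 3 largest positive and 3 largest negative called changes of each comparison, and the rest by ranges and counts. Alternatives were DESeq2 1.42.0, RLE factors, library totals, no filter, a replicate block, only the groups compared, the symbol matrix, each library left out in turn, and both irradiated libraries numbered 1 left out. The scripts were tested on simulated data. Promoter sequences are from RefSeq (GRCr8), a later build than the files', and 11 genes had no entry by symbol.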

Additional observations from a re-analysis of the deposited data

Results flagged for a closer look

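In 11 of 184 groups of 4 libraries, 1 library of a tested ISG stood apart, with a gap to its nearest neighbour, as a share of the group's range, above Dixon's critical value at 95%. Chance alone gives about 1 in 20, or 9.2 of 184.

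The gap for Ifit1 was 0.999 of the range for irradiated LPS 1 (high) and 0.875 for sham LPS 3 (high). Oas1a in irradiated PBS 3 was low (0.922), Usp18 in sham PBS 1 was high (0.866) and Bst2 in sham LPS 3 was high (0.845). Ifi27 in irradiated LPS 2 was high (0.893). Irradiated PBS 4 was high for Parp12 (0.938) and for Rtp4 (0.896). Trim21 was low in sham PBS 1 (0.88) and in irradiated LPS 3 (0.837), and Ifi35 was low in sham PBS 2 (0.833).

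The LPS response differed between irradiated and sham rats for Stat2, by 0.67 on the log2 scale, and for Ddx58, by 0.93, in the interaction test. Neither call held in every alternative, as given with the interaction.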

How the results depend on the processing

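Of the 117 called ISG results, 91 were called in every alternative (24 for a pairwise comparison, 23 for the interaction) and 0 turned direction. Calls that held throughout were 16 of 23 (LPS, sham), 25 of 32 (LPS, irradiated), 16 of 22 (irradiation, PBS), 34 of 38 (irradiation, LPS) and 0 of 2 interactions. The count of ISGs lower with LPS in irradiated rats, 1, became 2 with library totals alone or only the groups compared, and 0 without the filter or without both irradiated libraries numbered 1. The count of ISGs with a called interaction, 2, became 5 with DESeq2 and 0 with library totals alone or without both irradiated libraries numbered 1. Interaction calls over all genes, 171, became 418 with DESeq2 and 98 without those libraries. The causes were not tested.

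With 1 library left out, ISGs higher and lower numbered 15 to 27 and 1 to 3 for LPS in sham rats, 27 to 32 and 0 to 2 for LPS in irradiated rats, 16 to 26 and 0 for irradiation with PBS, 35 to 40 and 0 for irradiation with LPS, and 0 to 4 and 0 for the interaction. All genes called for the interaction ranged from 103 to 191.

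Without both irradiated libraries numbered 1, which had the highest summed neuron markers (66.9 and 98.8 CPM), 19 ISGs rose with irradiation and PBS and 36 with irradiation and LPS. Same-numbered libraries of different groups correlated in their deviations from the group means at r = -0.0887 to 0.405, over 0.1 in 10 of 24 pairs, and other pairs at -0.287 to 0.199, over 0.1 in 6 of 72. As a hint from the data of a shared factor, 11 of 16 libraries correlated best with one of their own number. The labels do not say what the number marks and not every same-numbered pair exceeded 0.1, so the reported fit has no block. With the replicate block, 18, 29, 18 and 37 ISGs rose in the 4 pairwise comparisons, 0 fell with LPS in irradiated rats, and 0 interactions were called. Low counts limit Irf9, Oas3, Helz2 and Socs1 (sham PBS means of 0.344, 0.697, 0.704 and 0.209 CPM) and the interferon genes (sham PBS means of at most 0.126 CPM).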
